A study of Mus musculus with 16 samples.

Results

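The genes described here are 36 liver genes of gluconeogenesis, amino acid breakdown and the urea cycle. They were listed by their known roles, with earlier results of these data known. For each gene the transcript cluster (the probe group that stands for a transcript on the array) assigned to that gene alone was used, or the one with the highest mean where a gene had several. Such a cluster was found for 31 of the 36 genes, out of 18820 genes with a cluster of their own. All 31 passed the filter on low values, on all 16 arrays, and were among the 14275 genes tested. Sds and Sdsl, which deaminate serine and threonine, and Gls2, the liver glutaminase, are not analysed here, since no cluster was assigned to them. Ass1, the argininosuccinate synthase of the urea cycle, and Gstz1, which acts in tyrosine breakdown, are not analysed here because their clusters are shared with another gene.

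A fasting liver makes glucose from lactate, glycerol and the carbon skeletons of amino acids. The amino group is removed by aminotransferases and related enzymes, and the urea cycle turns the resulting ammonia into urea. Glucagon, acting through cAMP, and glucocorticoids are known to raise many of these genes and insulin to lower them, with the coactivator PGC-1α (Ppargc1a) as one of the shared regulators. Urea synthesis and gluconeogenesis are known to take place mainly in periportal hepatocytes.

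RNA was measured in whole liver of 16 male C57BL/6J mice of 12 months, with 1 Affymetrix Mouse Gene 1.1 ST array per mouse. From 9 weeks of age the mice received AIN-93W as the control diet (C), daily portions with 30% less energy (CR), a medium-fat diet with 25% of energy as fat (MF), or an intermittent regimen (INT) that switched each week between MF ad libitum and 40% restriction and ended in an MF week. C and MF mice ate ad libitum. The CR food was a variant of AIN-93W with more vitamins and minerals, so that its composition and the restriction cannot be told apart. Each mouse was fasted for 4 h, gavaged with 0.5% carboxymethyl cellulose alone (mock) or with Wy-14,643 at 160 mg/kg (Wy), an agonist of the fatty acid receptor PPARα, and fasted for another 6 h until it was killed. Each diet held 2 mock and 2 Wy mice, of which 1 each was of high and 1 of low body weight, so that the design had 8 pairs of a mock and a Wy mouse matched by diet and body weight class. Arrays are named by class, diet and treatment (high C mock). The mice were killed in an afternoon window around the hour at which CR mice were fed, so the time since the last meal and the long-term diet cannot be told apart in CR.

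Values are log2 intensities after robust multi-array averaging (RMA). The median of the tested genes was 7.07 to 7.21 on every array, and even the most similar arrays were 0.202 apart (root-mean-square over genes), so that no array was a copy of another. The highest value in the table was 13.7. Several of the genes below lay near that end of the scale, both called (Pck1, G6pc, Tat, Cps1 and Tdo2) and not called (Fbp1, Hpd and Fah). What this did to their differences was not tested. The mean of 7 hepatocyte markers (Alb, Ttr, Apoa1, Apoc3, Trf, Fgb and Hnf4a) lay between 12.94 and 13.11 on all arrays, and none of the 7 passed the test for Wy or for CR against C. In whole liver, fewer cells of a type and less RNA per cell cannot be told apart. The mice of the high INT pair were run on another array plate than the other 14. Errors are standard errors (SE) of the fitted model, and a difference with an adjusted p under 0.05 is described as called.

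Promoter windows (250 bases before to 50 after an annotated start, RefSeq, GRCm38.p6) were at hand for 27 of the 36 genes. They were searched on both strands for the cAMP response element TGACGTCA, its half-site TGACG, the forkhead motif TGTTTAC and the C/EBP palindrome TTGCGCAA. The half-site lay in the windows of Pck1, Ppargc1a, Aass, Csad, Ftcd and Gstz1, and it lies in 20.8% of all 32851 windows. The other motifs, which lie in 1.79%, 3.65% and 0.183% of all windows, matched none of the 32 windows of these genes. Below are the 150 bases before the start of 4 of these genes, picked by their Wy difference. Pck1 and Ppargc1a were lower and Aass and Csad higher in Wy livers. Ftcd, also with the half-site, did not pass that test, and Gstz1 was not measured. Whether the half-site bears on the Wy difference was not tested. The half-site on either strand is in capitals (CGTCA where it is read from the opposite strand), and it begins 90 bases before the start in Pck1, 49 in Ppargc1a, 37 in Aass and 54 in Csad.
Pck1 (chr2:173152923-173153072, plus strand): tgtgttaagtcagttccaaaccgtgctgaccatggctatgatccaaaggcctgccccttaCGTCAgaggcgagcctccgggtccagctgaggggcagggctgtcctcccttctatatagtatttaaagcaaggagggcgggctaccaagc
Ppargc1a (chr5:51567726-51567875, minus strand): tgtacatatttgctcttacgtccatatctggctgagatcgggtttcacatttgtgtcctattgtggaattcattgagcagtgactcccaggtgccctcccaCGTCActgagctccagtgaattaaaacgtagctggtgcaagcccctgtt
Aass (chr6:23132987-23133136, minus strand): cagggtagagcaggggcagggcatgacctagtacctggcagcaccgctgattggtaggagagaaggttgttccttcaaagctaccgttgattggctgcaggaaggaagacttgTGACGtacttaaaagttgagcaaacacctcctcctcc
Csad (chr15:102205053-102205202, minus strand, 1 of 2 annotated starts): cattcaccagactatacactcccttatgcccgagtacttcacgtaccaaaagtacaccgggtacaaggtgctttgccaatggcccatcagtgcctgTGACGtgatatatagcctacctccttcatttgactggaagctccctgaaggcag

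To determine how these genes differed 6 h after gavage of the agonist, Wy and mock mice of the 8 pairs were compared. Of the 31 genes, 15 fell and 3 rose. Among all tested genes 28.3% were called, 16% lower and 12.3% higher in Wy livers. The falls included histidine ammonia-lyase (Hal), the coactivator Ppargc1a, proline dehydrogenase (Prodh), Pck1 and 3 of the 4 urea cycle genes measured, whereas Csad, Aass and Tdo2 rose. Whether called or not, 26 of the 31 genes had a lower mean with Wy, and their median log2 change was -0.16 against -0.005 over all tested genes. With arrays centred on their median, 4 of the genes were called higher and 14 lower, and over all genes 2190 were called higher and 1876 lower, against 1755 and 2283 without centring.

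**Figure D1:**
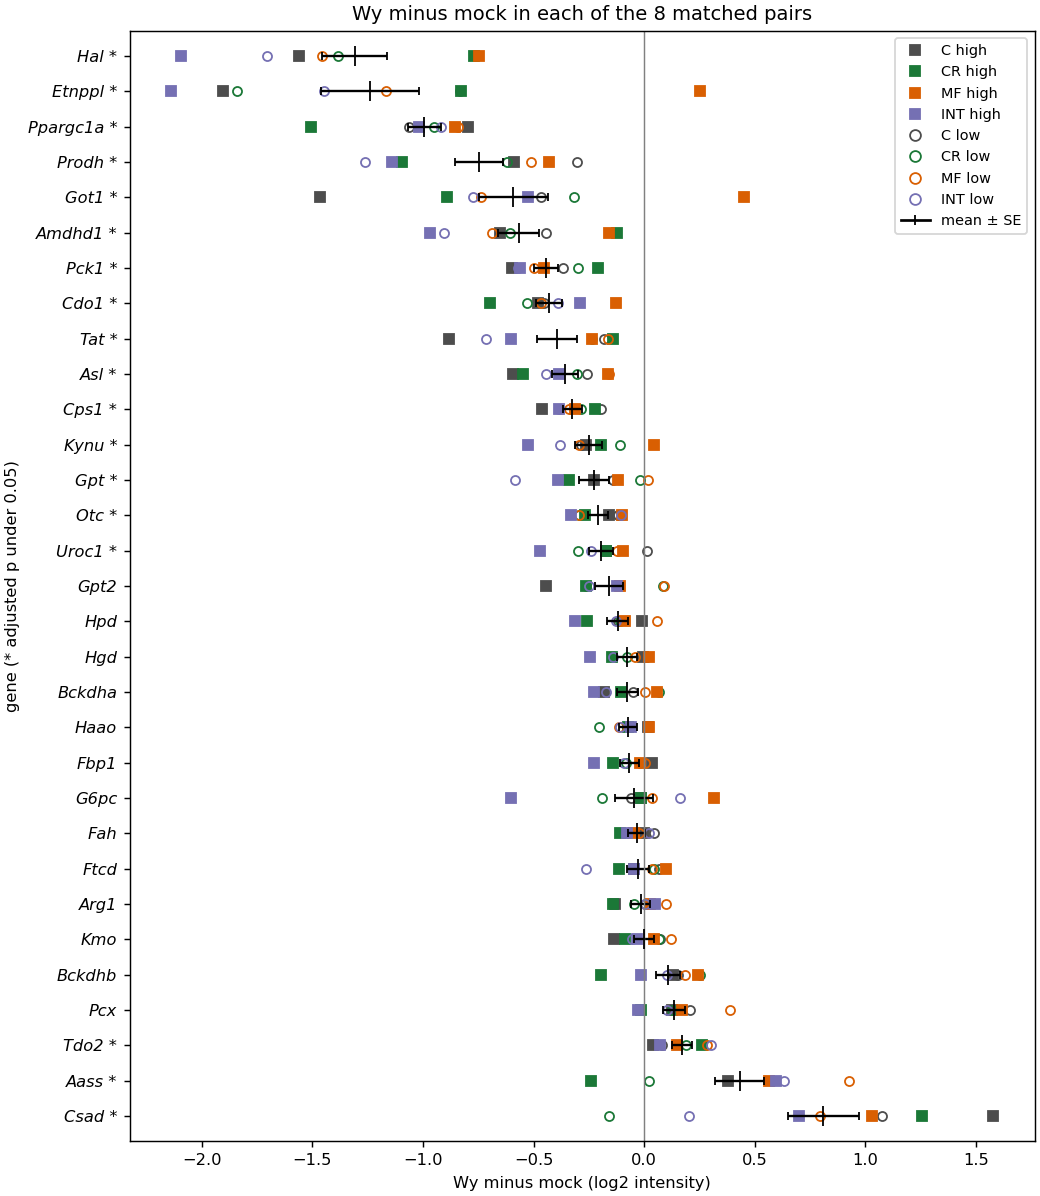
Wy minus mock difference (log2 intensity, x axis) of each of the 31 genes (y axis) in the 8 pairs, with diets in colours, squares for high and circles for low body weight, and the mean ± SE in black. Ppargc1a lay below 0 in all 8 pairs, from -1.51 to -0.79, whereas Etnppl and Got1 lay below 0 in all pairs but the high MF pair.

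Within gluconeogenesis, 2 of 5 genes fell and none rose. Pck1 encodes the cytosolic phosphoenolpyruvate carboxykinase, which commits oxaloacetate to glucose synthesis. Its level ran from 12.41 to 12.91 on the mock arrays (median 12.66) and from 11.96 to 12.62 on the Wy arrays (median 12.13). Both CR Wy arrays, at 12.62 and 12.61, were above the next Wy array at 12.29. Pck1 was 1.36-fold lower with Wy (log2 change -0.44 ± 0.05, n = 8 pairs, adjusted p = 0.000112), and the fall was seen in all 8 pairs. Ppargc1a ran from 8.07 to 10.67 on the mock arrays (median 8.94) and from 7.21 to 9.72 on the Wy arrays (median 7.97). Both sets of arrays overlapped, although each Wy mouse was below its paired mock mouse. The fold was 1.99 (log2 change -0.99 ± 0.07, adjusted p = 4.77e-06). The other 3 genes did not pass the test. G6pc, the catalytic subunit of glucose-6-phosphatase, which releases free glucose, changed by -0.05 ± 0.08, with pairs from -0.60 to 0.31. Fbp1, fructose-1,6-bisphosphatase, changed by -0.07 ± 0.04. Pcx, pyruvate carboxylase, changed by 0.13 ± 0.05 (adjusted p = 0.0746).

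All 4 genes of histidine breakdown had a lower mean with Wy, and 3 of them passed the test. Hal removes the amino group of histidine in the first step. It ran from 10.61 to 11.79 on the mock arrays (median 11.43) and from 9.38 to 10.72 on the Wy arrays (median 9.92). Of the mock arrays, high MF alone reached down into the range of the Wy arrays. The fold was 2.48 (log2 change -1.31 ± 0.15, adjusted p = 6.8e-05), and the pairs ran from -2.09 in high INT to -0.75 in high MF. Amdhd1, the imidazolonepropionase of the same pathway, ran from 10.06 to 10.82 on the mock arrays (median 10.62) and from 9.61 to 10.61 on the Wy arrays (median 9.93). It was lower in all 8 pairs by a mean of -0.57 ± 0.09, although by as little as -0.12 in high CR and -0.16 in high MF. Uroc1, the urocanate hydratase, changed by -0.20 ± 0.05 and was lower in 7 of 8 pairs. Ftcd, which passes the formimino group on to folate, changed by -0.03 ± 0.05 and did not pass the test.

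Among the genes that act on lysine, proline and phosphoethanolamine, the directions were mixed. Etnppl breaks down phosphoethanolamine. It ran from 8.74 to 10.89 on the mock arrays (median 9.76) and from 7.71 to 9.66 on the Wy arrays (median 8.60). The pairs were far apart, from -2.14 in high INT to 0.25 in high MF, and the mean change was -1.24 ± 0.22 (2.36-fold, adjusted p = 0.00154). Prodh, the first enzyme of proline breakdown, ran from 9.98 to 10.59 on the mock arrays (median 10.38) and from 9.05 to 10.07 on the Wy arrays (median 9.65), a change of -0.74 ± 0.11 that was seen in all pairs. Aass, the bifunctional enzyme that starts lysine breakdown, moved the other way, from 11.33 to 11.80 on the mock arrays (median 11.64) to between 11.45 and 12.40 on the Wy arrays (median 12.09). The 6 pairs of C, MF and INT lay between 0.38 and 0.93, while both CR pairs were near or below 0, with -0.24 in high CR and 0.02 in low CR. Over all pairs the rise was 0.43 ± 0.11 (adjusted p = 0.0129).

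Of the 11 measured aminotransferase, tyrosine and tryptophan genes, Got1, Gpt, Tat and Kynu fell, Tdo2 rose and the other 6 did not pass the test. Got1, the cytosolic aspartate aminotransferase, ran from 11.40 to 12.72 on the mock arrays (median 12.06) and from 10.65 to 12.41 on the Wy arrays (median 11.50). Its change was -0.59 ± 0.16, with -1.47 in high C and the opposite direction, 0.45, in high MF. Tat, the glucocorticoid-responsive enzyme that starts tyrosine breakdown, ran from 12.60 to 13.31 on the mock arrays (median 12.78) and from 11.87 to 13.07 on the Wy arrays (median 12.47), a change of -0.39 ± 0.09 that held in all pairs. Gpt, an alanine aminotransferase, fell by 0.22 ± 0.07 (adjusted p = 0.0277), a call that was lost when arrays were centred on their median, when the plate of the high INT pair was left out, and in 8 of the 16 fits that left out 1 array. Gpt2, the mitochondrial form, changed by -0.16 ± 0.06 without passing the test. The tyrosine enzymes after Tat, namely Hpd (-0.12 ± 0.05), Hgd (-0.08 ± 0.04) and Fah (-0.03 ± 0.04), did not pass either. Of the kynurenine pathway, Kynu fell by 0.25 ± 0.06, the entry enzyme Tdo2 rose by 0.17 ± 0.05, and Kmo (0.00 ± 0.04) and Haao (-0.07 ± 0.04) did not pass.

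Of the 4 measured urea cycle genes, Asl, Cps1 and Otc fell and Arg1 did not pass the test. Asl, which cleaves argininosuccinate, ran from 11.36 to 11.88 on the mock arrays (median 11.55) and from 10.91 to 11.57 on the Wy arrays (median 11.28), a change of -0.36 ± 0.06 (adjusted p = 0.000889). Cps1, which brings ammonia into the cycle, changed by -0.32 ± 0.04 (adjusted p = 0.000245) with pairs between -0.46 and -0.20. Otc, the ornithine transcarbamylase, changed by -0.21 ± 0.04 with pairs between -0.33 and -0.10. Asl, Cps1 and Otc were lower in 8 of 8 pairs. Arg1, the arginase that releases urea, changed by -0.02 ± 0.04 and did not pass the test.

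Both genes that lead from cysteine to taurine passed the test, in opposite directions. Cdo1, the cysteine dioxygenase, ran from 11.84 to 12.11 on the mock arrays (median 12.04) and from 11.42 to 11.72 on the Wy arrays (median 11.63). It was the only one of the 31 genes whose mock and Wy arrays did not overlap, a pattern seen in 4.85% of all tested genes, and it changed by -0.43 ± 0.06 (adjusted p = 0.000287). Csad, the decarboxylase of the next step, ran from 8.09 to 10.75 on the mock arrays (median 9.36) and from 9.16 to 10.95 on the Wy arrays (median 10.13). It rose by 0.81 ± 0.16 (1.75-fold, adjusted p = 0.00315). The rise was 0.70 to 1.58 in the high body weight pairs, but the low pairs were spread from -0.16 in CR to 1.08 in C. Bckdha and Bckdhb, the E1 subunits of the branched-chain ketoacid dehydrogenase, did not pass the test (-0.08 ± 0.05 and 0.11 ± 0.05).

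Whether the Wy change differed between diets was tested as an interaction, and none of the 31 genes, nor any of the 14275 tested (0%), was called. At an unadjusted p under 0.05 there were 2 of the 31, Aass and Prodh, and 4.69% of all genes. By limma's F-test Aass had an adjusted p of 0.947, and its pairs are given above. Prodh had an adjusted p of 0.997, with -1.14 and -1.26 in the INT pairs, -1.10 and -0.62 in CR, -0.59 and -0.31 in C, and -0.43 and -0.51 in MF. The third by p was Gpt (adjusted p = 0.997). With 4 residual degrees of freedom this test leaves wide room for differences. Between the high and low body weight pairs no gene was called either (0% of all genes), and Csad alone of the 31 had an unadjusted p under 0.05, as had 4.71% of all genes (difference 0.66 ± 0.27, adjusted p = 0.999). Pcx (-0.14 ± 0.10) and Haao (0.10 ± 0.08) followed.

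Of 150 further genes of these pathways and of their regulators and zonation markers, 132 were tested, of which 49 fell and 13 rose with Wy. Over all tested genes 16% fell and 12.3% rose. In the urea cycle and ammonia group, 4 of 8 fell and none rose. Nags, which makes the essential activator of Cps1, changed by -0.45 ± 0.05, and the mitochondrial ornithine carrier Slc25a15 by -0.62 ± 0.07. Glul, the glutamine synthetase, and the glutamine carrier Slc38a3 each changed by -0.15 ± 0.04. In other amino acid breakdown, 19 of 42 fell and 4 rose, with Sqor, the sulfide quinone oxidoreductase, at -0.41 ± 0.06, Kyat1, a kynurenine aminotransferase, at -0.54 ± 0.08, the dioxygenase Ido2 at -0.74 ± 0.11 and Glud1, glutamate dehydrogenase, at -0.27 ± 0.04. In branched-chain breakdown, 9 of 19 fell and 1 rose, among them the aminotransferase Bcat2 (-0.79 ± 0.09), the dehydrogenase subunit Dbt (-0.19 ± 0.04), Acadsb (-0.26 ± 0.05) and Ivd (-0.28 ± 0.06). The other glycolytic and gluconeogenic enzymes were split, with 3 of 18 higher and 3 lower. Gpd2 and Gpd1, the mitochondrial and cytosolic glycerol-3-phosphate dehydrogenases, rose by 1.23 ± 0.10 and 0.52 ± 0.06, whereas Slc37a4, the carrier of glucose-6-phosphate, and the glucose transporter Slc2a2 fell by 0.60 ± 0.09 and 0.43 ± 0.07. Of 26 regulators 7 fell and 5 rose. Foxo3 (-0.73 ± 0.05), the glucocorticoid-induced Tsc22d3 (-0.96 ± 0.13), the glucocorticoid receptor Nr3c1 (-0.33 ± 0.05) and Klf15, a regulator of amino acid breakdown genes (-0.32 ± 0.06), were among those that fell. The 5 that rose are not named here, and glucocorticoid action was not tested.

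Zonation markers that are not among the 36 genes moved in the same comparison. Of 10 periportal markers 4 fell and none rose (Slc7a2 -0.84 ± 0.09, Cdh1 -0.53 ± 0.13, Aldh1b1 -0.37 ± 0.10 and Pigr -0.18 ± 0.05), and their mean level lay between 10.40 and 10.60 on the mock arrays and between 10.08 and 10.34 on the Wy arrays. Of 12 pericentral markers 5 fell and none rose (among them Lgr5, 4.01-fold lower, Slc1a2 -0.58 ± 0.05, Glul and Slc13a3 -0.44 ± 0.11), and their mean lay between 9.90 and 10.33 against 9.58 to 9.95. Over all tested genes 16% fell and 12.3% rose. The part of the zonation markers in the falls described above was not tested. Of 48 markers listed for cells other than hepatocytes that were tested, 2 were called, against 28.3% of all tested genes. They were Dpp4 of the endothelial list (-0.29) and Plin1 of the adipocyte list (0.16). No other gene of the endothelial list was called. Plin1 (4.88 to 5.22) and several uncalled markers, such as Krt19 (4.61 to 5.37) and Prss2 (4.21 to 4.55), lay near the filter limit of log2 4.32. The low count thus does not show that the other cells were unchanged.

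To determine how these genes differed between the diets, the 4 arrays of each diet entered a model that also held terms for treatment and for body weight class. Every diet held both classes, and the authors report that CR and INT mice weighed less than C and MF mice. The class term thus does not make body weight equal across diets, and diet and body weight cannot be told apart in these comparisons. Any difference among the 4 diets was called for 10 of the 31 genes (9.86% of all tested genes), namely Ppargc1a, Pcx, Kmo, Pck1, Tat, Got1, Csad, Hgd, G6pc and Etnppl. With the matched pair as a random block 7 were called. Against C, CR livers had higher Ppargc1a, Csad, Etnppl, Tat and Pck1 and lower Pcx and Kmo, which makes 5 higher and 2 lower of 31 (10.5% of all genes called, 4.54% higher and 5.98% lower). Against MF, CR was higher for 8 genes and lower for 2 (12.7% of all genes called, 5.79% higher and 6.87% lower). INT was lower than CR for 10 genes and higher for 2 (9.85% of all genes called, 5.57% higher and 4.28% lower). These 3 comparisons share the 4 CR arrays and are not independent of each other. MF and INT differed from C, and INT from MF, for none of the 31 genes.

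Within the mock arrays and again within the Wy arrays, both CR mice lay above all mice of the other diets for 8 of the 31 genes (Arg1, Cps1, Etnppl, G6pc, Hgd, Pck1, Ppargc1a and Tat) and below them for 2 (Kmo and Pcx). Over all tested genes 8.37% showed such a pattern for CR. For C, MF and INT the same pattern was found in none of the 31 genes and in 0.266%, 0.14% and 0.673% of all genes.

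**Figure D2:**
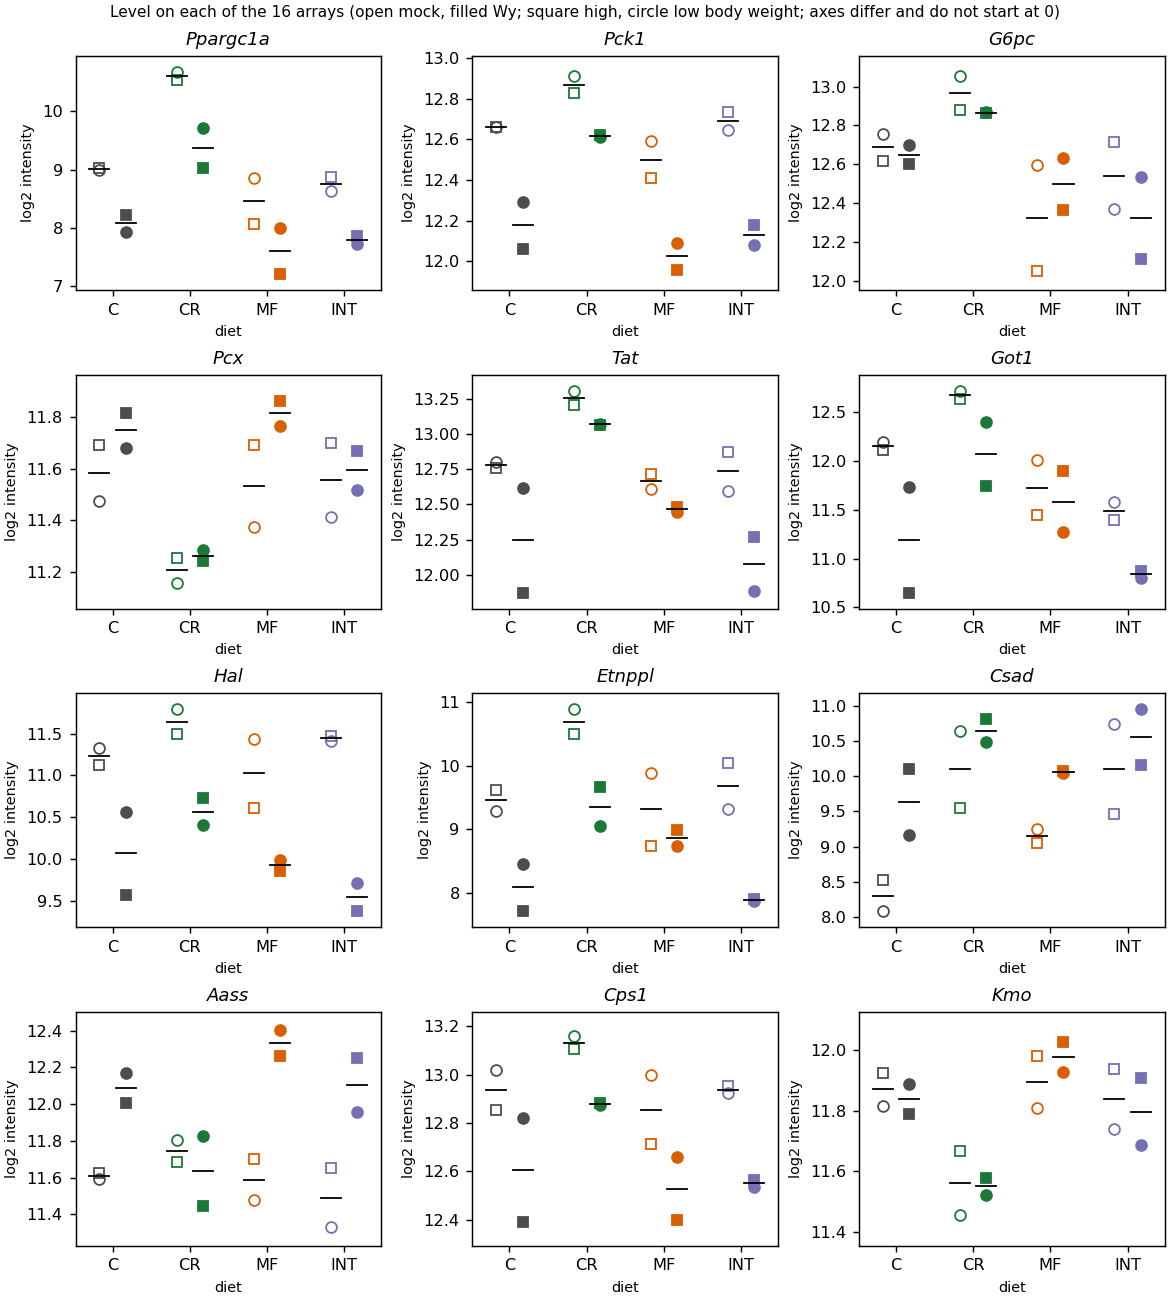
Level (log2 intensity, y axis) of 12 of the genes on each of the 16 arrays by diet (x axis), with open symbols for mock, filled for Wy, squares for high and circles for low body weight, and a line at the mean of each group of 2. For Ppargc1a both CR mock arrays lay above 10.5 and all other mock arrays at 9.02 or lower, and for Pcx and Kmo the CR arrays were the lowest within each treatment.

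Where 4 values of a diet follow each other below, they are those of the high mock, low mock, high Wy and low Wy arrays. Ppargc1a had the largest differences of CR from the other diets among the 5 gluconeogenic genes. On the CR mock arrays it stood at 10.54 (high) and 10.67 (low), against 9.02 and 9.00 in C, 8.07 and 8.85 in MF and 8.87 and 8.64 in INT. On the Wy arrays it stood at 9.03 and 9.72 in CR, 8.23 and 7.93 in C, 7.21 and 8.01 in MF and 7.86 and 7.72 in INT. The CR mice that received Wy thus had levels at or above those of mock-treated C mice. CR exceeded C by 1.44 ± 0.18 (2.71-fold, n = 4 against 4, adjusted p = 0.000422) and MF by 1.95 ± 0.18 (3.87-fold, adjusted p = 5.04e-05), and INT was below CR by -1.71 ± 0.18 (adjusted p = 9.07e-05).

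Pck1 and G6pc were higher in CR by smaller amounts. Pck1 on the mock arrays was 12.83 and 12.91 in CR, 12.66 and 12.66 in C, 12.41 and 12.59 in MF and 12.74 and 12.65 in INT. On the Wy arrays it was 12.62 and 12.61 in CR, 12.06 and 12.29 in C, 11.96 and 12.09 in MF and 12.18 and 12.08 in INT. The difference was 0.32 ± 0.08 against C (adjusted p = 0.0164), 0.48 ± 0.08 against MF and -0.33 ± 0.08 for INT minus CR, and against C it lost its call without the high C Wy or the high CR Wy array. G6pc was 12.88 and 13.06 on the CR mock and 12.87 and 12.87 on the CR Wy arrays. In C it was 12.62 and 12.76 (mock) and 12.60 and 12.70 (Wy), in MF 12.05, 12.60, 12.37 and 12.63, and in INT 12.71, 12.37, 12.11 and 12.53 in the same order. CR exceeded MF by 0.51 ± 0.12 (adjusted p = 0.015) and INT was lower than CR by -0.49 ± 0.12 (lost in 5 of the 16 fits without 1 array), whereas CR against C (0.25 ± 0.12) did not pass the test. Fbp1 did not pass in any diet comparison.

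Pcx, which feeds pyruvate into gluconeogenesis and also refills the citric acid cycle, had the opposite order. It stood at 11.26 and 11.16 on the CR mock arrays and at 11.24 and 11.29 on the CR Wy arrays. C gave 11.69 and 11.48 (mock) and 11.82 and 11.68 (Wy), MF 11.69, 11.37, 11.86 and 11.76, and INT 11.70, 11.42, 11.67 and 11.52. No array of another diet was as low as a CR array. CR was lower than C by -0.43 ± 0.07 (adjusted p = 0.00224) and than MF by -0.44 ± 0.07, and INT exceeded CR by 0.34 ± 0.07. Kmo, the kynurenine hydroxylase, behaved alike, at 11.67 and 11.45 (CR mock) and 11.58 and 11.52 (CR Wy), against 11.93, 11.81, 11.79 and 11.89 in C, 11.98, 11.81, 12.03 and 11.93 in MF and 11.94, 11.74, 11.91 and 11.68 in INT. The difference was -0.30 ± 0.06 from C (adjusted p = 0.00823) and -0.38 ± 0.06 from MF, and INT exceeded CR by 0.26 ± 0.06. The Kmo call for INT against CR was lost in 2 of the 16 fits without 1 array and when arrays were centred on their median.

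Among the enzymes that remove amino groups, Tat and Got1 were called higher in CR, each in at least 1 comparison. Gpt2 and Gpt had their lowest means in CR, with -0.26 ± 0.10 and -0.23 ± 0.11 for CR minus C. Neither passed the test in any diet comparison. Tat stood at 13.21 and 13.31 on the CR mock and 13.07 and 13.07 on the CR Wy arrays. The other arrays were lower, at 12.76, 12.80, 11.87 and 12.62 in C, 12.72, 12.61, 12.48 and 12.45 in MF and 12.87, 12.60, 12.27 and 11.88 in INT. CR exceeded C by 0.65 ± 0.15 (adjusted p = 0.0149) and MF by 0.60 ± 0.15, calls lost in 1 (without high CR Wy) and 3 of the 16 fits without 1 array, and INT was below CR by -0.76 ± 0.15. Got1 stood at 12.63 and 12.72 (CR mock) and 11.74 and 12.41 (CR Wy), against 12.12, 12.20, 10.65 and 11.73 in C, 11.45, 12.01, 11.90 and 11.27 in MF and 11.40, 11.58, 10.87 and 10.80 in INT. Every INT array was below every CR array, and 10.3% of all genes had no overlap between these diets. The difference was -1.21 ± 0.22 (2.32-fold, adjusted p = 0.00428). Against MF the difference was 0.72 ± 0.22 (adjusted p = 0.0486), a call that was lost in 14 of the 16 fits without 1 array and with the pair as a random block (adjusted p = 0.0684), and against C 0.70 ± 0.22 did not pass (adjusted p = 0.0604).

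Etnppl and Csad, with wider errors than the genes above (SE 0.31), were also called between CR and C. Etnppl stood at 10.49 and 10.89 (CR mock) and 9.66 and 9.05 (CR Wy), against 9.62, 9.29, 7.71 and 8.46 in C, 8.74, 9.90, 8.99 and 8.73 in MF and 10.04, 9.32, 7.90 and 7.88 in INT. CR was above C by 1.25 ± 0.31 (2.39-fold, adjusted p = 0.0193), and INT below CR by -1.24 ± 0.31, while CR against MF (0.94 ± 0.31) did not pass. Without 1 array the first call was lost in 4 and the second in 5 of 16 fits. Csad had its lowest mean in C, with 8.52 and 8.09 (mock) and 10.10 and 9.16 (Wy). It was 9.55, 10.64, 10.81 and 10.48 in CR, 9.05, 9.25, 10.08 and 10.05 in MF and 9.46, 10.75, 10.16 and 10.95 in INT. CR exceeded C by 1.40 ± 0.31 (2.65-fold, adjusted p = 0.0124), although the arrays of these diets overlapped. CR against MF did not pass (0.76 ± 0.31, adjusted p = 0.131), and INT exceeded C by 1.36 ± 0.31 without passing the test (adjusted p = 0.183). INT and CR were near each other in Csad, unlike in the genes above.

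Of the urea cycle genes, none passed the test between CR and C, 2 of 4 were higher in CR than in MF and 3 of 4 were lower in INT than in CR. Cps1 stood at 13.10 and 13.16 (CR mock) and 12.88 and 12.87 (CR Wy), against 12.85, 13.02, 12.39 and 12.82 in C, 12.71, 13.00, 12.40 and 12.66 in MF and 12.95, 12.92, 12.56 and 12.54 in INT. CR exceeded MF by 0.31 ± 0.08 (adjusted p = 0.0189, lost in 3 of the 16 fits without 1 array) and INT was below CR by -0.26 ± 0.08 (adjusted p = 0.0494), the latter lost in 13 of the 16 fits without 1 array and with the pair as a random block (adjusted p = 0.0634). Asl stood at 11.84 and 11.88 (CR mock) and 11.29 and 11.57 (CR Wy), against 11.58, 11.36, 11.20 and 10.91 in INT, and INT was lower by -0.38 ± 0.10, a call lost in 5 of the 16 fits without 1 array. In C it was 11.52, 11.54, 10.93 and 11.28 and in MF 11.43, 11.56, 11.27 and 11.40. Arg1 differed by 0.26 ± 0.08 between CR and MF, a call that was lost in 11 of 16 such fits and with the random block (adjusted p = 0.0601), and by -0.30 ± 0.08 between INT and CR, lost in 5. Hgd, of tyrosine breakdown, differed by 0.24 ± 0.06 (lost in 4 of 16 such fits) and -0.27 ± 0.06 in the same comparisons.

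**Figure D3:**
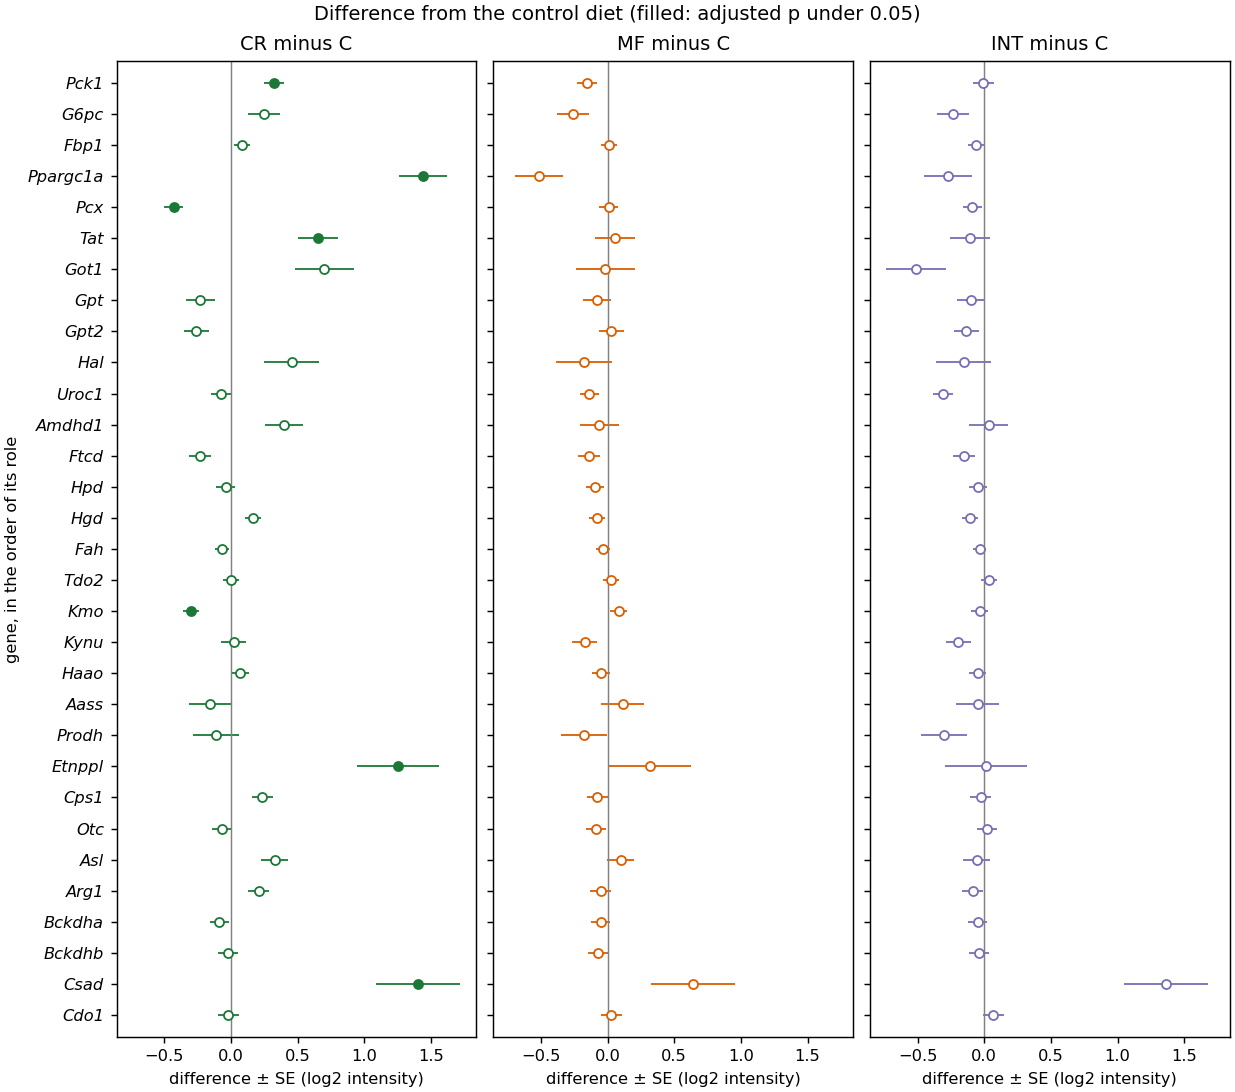
Difference of CR, MF and INT from C (log2 intensity ± SE, x axis) for each of the 31 genes (y axis, in the order of their roles), with filled points for an adjusted p under 0.05. Filled points are found for CR alone, with Ppargc1a, Csad, Etnppl, Tat and Pck1 above 0 and Pcx and Kmo below it.

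For MF minus C the genes with the smallest p were Ppargc1a (-0.51 ± 0.18, unadjusted p = 0.0137, adjusted p = 1.00), G6pc (-0.26 ± 0.12) and Pck1 (-0.16 ± 0.08), and no gene of the array was called (0%). For INT minus C they were Csad, Uroc1 (-0.31 ± 0.07, adjusted p = 0.196) and Got1 (-0.51 ± 0.22), with 0.00701% of all genes called. For INT minus MF they were Uroc1 (-0.17 ± 0.07), Csad (0.72 ± 0.31) and Got1 (-0.49 ± 0.22), with 0% called. At an unadjusted p under 0.05 there were 1, 3 and 3 of the 31 genes in these comparisons, and 4.4%, 9.84% and 11.4% of all genes. Uroc1 on the INT arrays was 10.68 and 10.48 (mock) and 10.21 and 10.24 (Wy), against 10.80, 10.71, 10.62 and 10.72 in C and 10.56, 10.70, 10.47 and 10.58 in MF, so the INT Wy mice were the lowest of all.

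The Wy difference and the CR difference were then set side by side for each gene. Of the 15 genes that fell with Wy, 7 (Asl, Cps1, Etnppl, Got1, Pck1, Ppargc1a and Tat) were called higher in CR in at least 1 of the 3 comparisons with CR. Over all tested genes 374 of 2283 that fell with Wy (16.4%) were so called, or 2.62% of all genes. All these comparisons use the same mice and the genes were listed with earlier results known, so that neither share was tested. Csad was higher in both. Arg1, G6pc, Hgd, Kmo and Pcx were called in a CR comparison and not with Wy (10.1% of all genes), whereas 10 genes (Aass, Amdhd1, Cdo1, Gpt, Hal, Kynu, Otc, Prodh, Tdo2 and Uroc1) were called with Wy and in no CR comparison (20.5% of all genes). That a gene passed in one and not in the other does not show that the differences are unequal. Bckdha, Bckdhb, Fah, Fbp1, Ftcd, Gpt2, Haao and Hpd were called in none of the 14 comparisons.

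**Figure D4:**
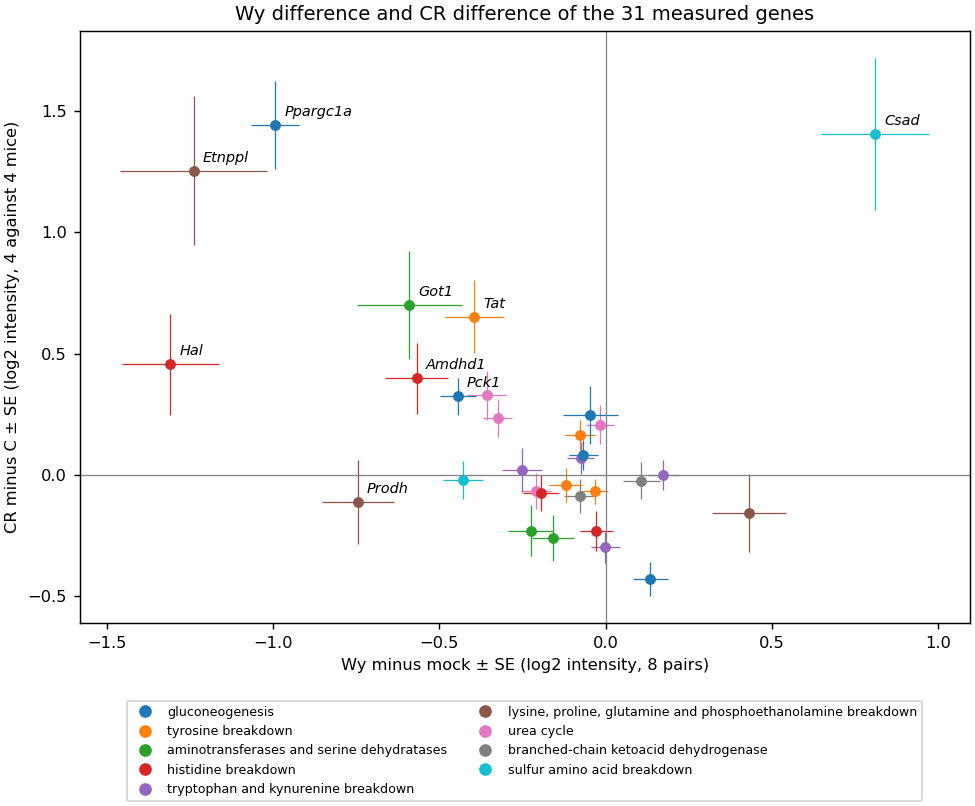
Wy minus mock (x axis) and CR minus C (y axis), both in log2 intensity ± SE, for the 31 genes coloured by role, with names at the points farther from the origin. Ppargc1a and Etnppl lie far to the upper left (lower with Wy, higher in CR), Csad lies to the upper right, and Hal and Prodh lie to the left.

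In the further genes of these pathways, 15 of 132 were higher and 17 lower in CR than in C (4.54% higher and 5.98% lower over all tested genes). Among regulators 5 of 26 were higher and none lower. They were Igfbp1, an insulin-repressed binding protein (1.83 ± 0.42), Sik1, a kinase induced by cAMP (1.05 ± 0.20), the insulin receptor substrate Irs2 (0.80 ± 0.17), Klf15 (0.58 ± 0.13) and the glucocorticoid-responsive clock gene Per1 (0.50 ± 0.12). Against MF, 7 of the 26 were higher in CR and none lower, with Klf15 at 0.93 ± 0.13, Per1 at 0.65 ± 0.12, Tsc22d3 at 0.89 ± 0.18 and Irs1 at 0.62 ± 0.15, and 5 were lower in INT than in CR and none higher. Over all tested genes 5.79% were higher and 6.87% lower in CR than in MF. INT was lower than CR for 4.28% and higher for 5.57%. Of the other glycolytic and gluconeogenic enzymes, Pklr (0.38 ± 0.09), Pck2 (0.27 ± 0.07) and Pfkl (0.34 ± 0.10) were higher and Pfkfb3 (-0.81 ± 0.11) lower in CR than in C. In amino acid breakdown 3 of 42 were higher and 7 lower. Acmsd, which diverts kynurenine carbon from NAD synthesis, was higher by 1.52 ± 0.28, and Bhmt, which remethylates homocysteine with betaine, was lower by -1.47 ± 0.28, as were Abat (-0.72 ± 0.13) and Agxt2 (-0.59 ± 0.10). In branched-chain breakdown 3 of 19 were lower, Bckdk, the kinase that inhibits the ketoacid dehydrogenase (-0.45 ± 0.07), Hsd17b10 (-0.50 ± 0.10) and Pccb (-0.25 ± 0.06). The ammonia transporter Rhbg (-1.22 ± 0.16) and Agmat (-0.26 ± 0.08) were lower and Slc25a15 (0.39 ± 0.11) was higher.

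Zonation markers were mixed between CR and C. Of 10 periportal markers 3 were higher and 2 lower, and of 12 pericentral markers none was higher and 4 lower. The mean of the periportal list lay between 10.16 and 10.48 in CR and 10.18 and 10.48 in C, and that of the pericentral list between 9.58 and 9.91 in CR and 9.90 and 10.33 in C. Their part in the diet differences was not tested. Of the 48 markers of other cells, 5 were lower and none higher in CR than in C (5.98% lower and 4.54% higher over all tested genes). These were Alas2 (-1.34 ± 0.14), Cd79b, Cela1, Col1a1 and Pdgfrb.

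Over all diets, high and low body weight mice differed in none of the 31 genes (0% of all genes called, 4 of the 31 and 14% of all genes at an unadjusted p under 0.05). The smallest p belonged to Pcx (0.16 ± 0.05, adjusted p = 0.226), Kmo (0.12 ± 0.04) and Cps1 (-0.14 ± 0.06). In the ad libitum diets C and MF taken alone, Cps1 was lower in the high mice by -0.28 ± 0.06 (1.22-fold, adjusted p = 0.0211) and was the one of the 31 genes called, where 7.39% of all genes were called (4.67% higher, 2.72% lower). It stood at 12.85 (C mock), 12.39 (C Wy), 12.71 (MF mock) and 12.40 (MF Wy) in high mice, against 13.02, 12.82, 13.00 and 12.66 in low mice. Each high mouse was below the low mouse of its diet and treatment, although the classes overlapped when treatments were pooled. The call was lost without the high or the low C Wy array and without the high or the low MF mock array. Most of the other genes lay on the same side without passing the test, since 26 of 31 had a lower mean in high mice, with a median of -0.12 against -0.004 over all genes.

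**Figure D5:**
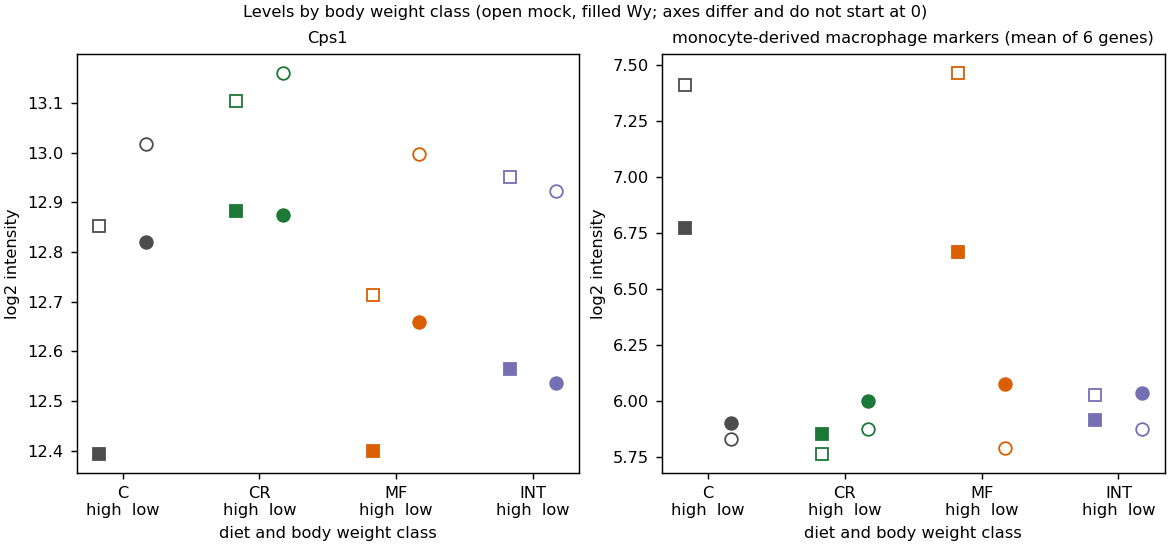
Cps1 (left) and the mean of 6 monocyte-derived macrophage markers (right) in log2 intensity (y axis) by diet and body weight class (x axis), with open symbols for mock and filled for Wy. In C and MF the high mice had lower Cps1 than the low mice of the same treatment, and the macrophage mean was between 6.67 and 7.46 in the high C and MF mice and at most 6.07 elsewhere.

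Markers of several other cell types moved with body weight class in the same mice, with 12 of 48 called higher and 2 lower in the high C and MF mice. Over all tested genes 4.67% were called higher and 2.72% lower. All 6 measured monocyte-derived macrophage markers (Ccr2, Gpnmb, Trem2, Itgax, Cd68 and Lgals3) were called higher in high than in low C and MF mice. Their mean was between 6.67 and 7.46 on the 4 high C and MF arrays and between 5.76 and 6.07 on the other 12. The mean of 7 stellate cell and fibroblast markers (Col1a1 and Col3a1 called higher) was likewise apart, at 7.75 to 8.02 against 7.29 to 7.70. Lyve1 and Pecam1 (endothelial), Lpl (adipocyte) and Csf3r (neutrophil) were also called higher, and Timd4 (Kupffer cell) and Alas2 (erythroid) lower. The hepatocyte mean was between 12.94 and 13.03 in the high and between 13.00 and 13.04 in the low mice of C and MF. Their part in the Cps1 difference was not tested. Among the further pathway genes, 5 of 132 were higher and 11 lower in the high mice of C and MF (4.67% higher and 2.72% lower over all tested genes). Klf15 (-0.46 ± 0.08) and Irs1 (-0.55 ± 0.10) were the regulators called, and in branched-chain breakdown Dbt (-0.32 ± 0.06), Acadsb (-0.30 ± 0.07) and Bcat2 (-0.45 ± 0.12) were lower. In other amino acid breakdown 5 of 42 were lower and none higher, among them Kyat1 (-0.58 ± 0.11), Gnmt (-0.38 ± 0.09), Agxt (-0.59 ± 0.14) and Hao1 (-0.40 ± 0.10).

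In CR and INT, none of the 31 genes was called between the classes (0% of all genes called, 2 of the 31 and 4.76% of all genes at an unadjusted p under 0.05). The authors report that body weight varied very little within CR and INT but strongly within C and MF. The classes may thus lie close in weight in CR and INT. Neither this test nor the contrast with C and MF below can show whether body weight matters there. The smallest p belonged to Csad (-0.71 ± 0.23, adjusted p = 0.968), Kmo (0.17 ± 0.06) and Arg1 (0.12 ± 0.06). The difference between the body weight effects of both sets of diets was called for none of the 31 genes either (0.855% of all genes, 5 of the 31 and 14.1% of all genes at an unadjusted p under 0.05). It was -0.29 ± 0.09 for Cps1 (adjusted p = 0.154), 1.01 ± 0.32 for Csad (adjusted p = 0.179) and -0.22 ± 0.08 for Haao.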

How the data were processed

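The authors deposited log2 intensities of 35556 Affymetrix transcript clusters, normalised by robust multi-array averaging (RMA, version not given in the sources used here), for 16 livers, 1 mouse each. Platform annotation assigned 21218 clusters to 1 gene, 1881 to several and listed no gene for 12457. Clusters with 1 gene were used (the cluster of highest mean for the 1386 genes with several), with no further normalisation. Genes with an intensity above 20 (log2 4.32) on at least 5 arrays were tested with limma 3.58.1 in R 4.3.3 (lmFit and eBayes), adjusted by Benjamini-Hochberg over all 14275 tested genes within each of 14 comparisons. The procedure was tested on simulated data. The number of arrays limits the precision.

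Wy was compared with mock with a block for each matched pair (leaving 7 residual degrees of freedom; 4 for its interaction with diet and 6 with body weight class). Diets were compared with treatment and class as terms (10), and body weight within C and MF or CR and INT in a model of diet by class with treatment (7). The labels state that mock and Wy mice were matched by body weight. Deviations within pairs correlated at 0.531 in C, 0.564 in MF, 0.0839 in INT and -0.169 in CR.

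The 36 genes, the lists of pathway genes and cell markers and the motifs were chosen with earlier results of these data known. Named with values were the called genes of the 36 with the highest absolute change (up to 12 for Wy, 8 for each other comparison), the 3 with the smallest p where none was called, and up to 4 called genes of each pathway list by p. Per1 in CR against C and the called markers of other cells were named in addition, after their values were seen. Ppargc1a had 2 clusters, and that of the higher mean was used. Alternatives were fits without the block or with the pair as a random block, trended and robust moderation, median centring, no or a stricter filter, the mean of all clusters, 1 plate, 1 treatment, 1 array left out in turn and, added after the data were seen, low body weight arrays alone.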

Additional observations from a re-analysis of the deposited data

Results flagged for a closer look

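Across the 31 genes, 1 had a Wy minus mock difference that lay far from those of the other pairs. Ppargc1a differed by -1.51 in the high CR pair, while the next pair was at -1.06 and the highest at -0.79. The gap to the next pair was 0.623 of the whole range, above Dixon's critical value for 8 values. Such a gap is expected by chance in about 1 of 20 sets of values, and 31 were examined. Without either array of that pair the mean change of Ppargc1a was -0.92.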

How the results depend on the processing

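No change of any of the 31 genes that was called turned its direction under any alternative. Without the pair as a block 18 genes were called for Wy, as with it, and 17 to 19 with 1 array left out. With low body weight arrays alone, an alternative chosen after seeing the data, 12 were called for Wy, 3 for any diet, 2 for CR minus C, 5 for INT minus CR and 2 for CR minus MF. The diet calls rest on both treatments together. With mock arrays alone 0, 0, 2 and 0 genes were called in the same order of diet comparisons, and with Wy arrays alone 0, 0, 0 and 1, from fits with fewer arrays. With the pair as a random block 7 genes were called for any diet, 7 for CR minus C, 11 for INT minus CR (losing Cps1) and 8 for CR minus MF (losing Arg1 and Got1). Without the second plate INT minus CR kept 7 of 12 calls, losing Cps1, Etnppl, Hgd, Kmo and Pcx. With 1 array left out the calls ran from 5 to 12 for any diet, 4 to 9 for CR minus C (4 without high CR Wy), 6 to 13 for INT minus CR (6 without low CR mock, 7 without low INT mock), 5 to 10 for CR minus MF (5 without high MF mock, 6 without high CR Wy) and 0 to 2 for body weight in C and MF. The causes were not tested. The pair as a random block could not be fitted for body weight within pairs of diets, and single treatments and the first plate were not run where they left too few arrays. Each diet by treatment group holds 2 mice, which limits what these tests can detect.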
